A study of Mus musculus with 6 samples.

Results

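The genes described here copy DNA and make its building blocks: 59 genes of origin licensing, the replicative helicase, the polymerases, the sliding clamp, chromatin assembly and deoxynucleotide synthesis, with 3 E2F transcription factors. They were taken by gene symbol from a fixed list, and each gene was read from its brightest probe set. Of the 59 genes, 58 were measured, among 18193 genes in all, and Chaf1a was not analysed here. The cells were 4T1, a mouse mammary carcinoma line that forms tumours and metastasises in mice. Of 6 samples, 3 were transduced with a control shRNA vector and 3 with a vector expressing an shRNA against NFAT1, a calcium-regulated transcription factor whose gene is Nfatc2. Both groups were kept under selection for 10 days before RNA was taken, and 200 ng of total RNA per sample was hybridised to 1 Affymetrix mouse array. Whether the samples of a group were separate transductions or cultures is not said in the labels, so the spread behind each p-value may be technical. With 1 vector per group, effects of the target and of the vector cannot be told apart.

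Before S phase the origin recognition complex, Cdc6 and Cdt1 load the MCM helicase onto DNA, and the kinase of Cdc7 and Dbf4 then helps to turn it into a moving fork with Cdc45 and the GINS complex. Polymerases, their clamp and the single-strand binding protein RPA follow the fork, and ribonucleotide reductase and thymidylate synthase supply the deoxynucleotides. Many of these genes are transcribed under E2F control as cells enter S phase, so their mRNA is commonly read as a sign of proliferation. In bulk RNA, fewer cells in S phase and less mRNA per cell cannot be told apart.

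Values are log2 RMA signals, which the authors normalized between arrays by quantiles, and differences are NFAT1 shRNA minus control. Array medians lay between 5.42 and 5.48. For the target itself, Nfatc2, the array has 6 probe sets, of which 4 were lower and 2 higher in NFAT1 shRNA cells. On the one with the smallest p the controls read 6.05, 6.18 and 5.91 and NFAT1 shRNA 1, 2 and 3 read 5.15, 5.43 and 5.29, without overlap (limma adjusted p = 0.0707 over all probe sets). On the brightest of the 6 the controls read 5.92, 5.92 and 5.86 and the NFAT1 shRNA arrays 6.19, 6.48 and 6.09 (limma adjusted p = 0.251). The targeted gene thus gives no settled check of the labels, and samples are named as labelled throughout. Of 8 epithelial markers 7 averaged 7 or more, with Epcam between 12.08 and 12.79. Krt14, a basal keratin of that list, read 10.67, 10.38 and 10.56 in controls and 9.38, 7.46 and 8.40 in NFAT1 shRNA 1 to 3, without overlap (difference -2.12, limma adjusted p = 0.123). Krt14 was thus lowest on the arrays where most replication genes were low, and it was below the controls on NFAT1 shRNA 1 as well. The rest of the list did not follow it. Krt5, also a basal keratin but dim, read 5.10 to 5.39 over the 6 arrays. Krt18 was higher on every NFAT1 shRNA array than in any control (difference 0.27, limma adjusted p = 0.226). The other epithelial markers overlapped between the groups. Of 7 fibroblast markers 1 (Pdgfra), of 6 leukocyte markers 1 (Csf1r) and of 4 endothelial markers 0 reached 7, and Ptprc, the defining leukocyte marker, stayed between 2.85 and 3.06. Cd68, a macrophage marker, read 6.22, 6.85 and 6.55 in controls and 6.23, 7.75 and 7.92 in NFAT1 shRNA 1 to 3 (limma adjusted p = 0.406), highest on NFAT1 shRNA 2 and 3. Other markers of that list did not follow Cd68. Adgre1 stayed between 4.05 and 4.27 and Itgam between 2.86 and 3.16. Csf1r read 8.08, 8.49 and 8.23 in controls and 6.99, 9.01 and 8.26 in NFAT1 shRNA 1 to 3. The summed signal, as log2, ran from 14.81 to 14.87 in controls and from 14.79 to 15.01 in NFAT1 shRNA samples for epithelial markers. For fibroblast markers these ranges were 7.72 to 8.54 and 8.02 to 8.92, for leukocyte markers 8.69 to 9.09 and 8.14 to 9.67, and for endothelial markers 6.50 to 6.57 and 6.59 to 6.86. Their part in the results was not tested.

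One array of the knockdown group resembled the controls. Over all probe sets, Pearson's r of NFAT1 shRNA 1 was 0.991 to 0.995 with each control, 0.986 with NFAT1 shRNA 2 and 0.985 with NFAT1 shRNA 3, given as a description. Control 3 lay between controls 1 and 2 for 54.1% of all genes and for 42 of the 58 replication genes. Of the 8212 genes with a mean signal of 7 or more, it did so for 5804, a share near that of the replication genes. The counts below are therefore given with all 6 arrays and without NFAT1 shRNA 1, and the main count also without control 3. That array was left out after its signals had been seen, so counts and p-values without it depend on that choice. On the Nfatc2 probe set with the smallest p, NFAT1 shRNA 1 read 5.15, the lowest of the 6 arrays. Why it resembled the controls elsewhere was not tested.

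With all 6 arrays 1 of the 58 genes changed, Donson, a fork component, which fell to 34.2% of control. The count comes from limma with an adjusted p under 0.05 over all genes, a threshold that 0.330% of all genes passed as a fall and 0.181% as a rise. The other 57 did not pass. Their means still leaned to one side: 55 of the 58 means were lower with NFAT1 shRNA, against 40.7% over all genes. The median difference of the 58 was -0.37, beside 0.04 over all genes. These genes are bright, 57 of 58 averaging 7 or more against 45.1% of all genes. Of all 8212 genes that bright 50.3% were lower by their mean (median difference -0.0021), and 0.645% passed as a fall. Unadjusted, 13 of the 58 were lower at a p under 0.05 and 0 were higher, where 7.01% of all genes and 12.1% of the bright genes were lower and 10.1% of all genes higher. When the deposited values were quantile-normalized again 52 of the 58 were lower, with Mcm7, Cdt1 and Rfc2 turning to small positive differences. With array medians subtracted the count was 55.

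The pattern differed between the NFAT1 shRNA arrays. Against the control mean, the median of the 58 genes was 0.05 on NFAT1 shRNA 1, -0.62 on NFAT1 shRNA 2 and -0.48 on NFAT1 shRNA 3, and 0.02, -0.02 and 0.01 on the controls. NFAT1 shRNA 2 and 3 both lay below all 3 controls for 52 of the 58 genes, a condition that 19.9% of all genes and 31.4% of the bright genes met. The 6 exceptions, each on its brightest probe set, were Mcm7, Cdt1, Gins4, Pola1, Rpa3 and Rfc4. On other bright probe sets of Mcm7, Cdt1 and Rfc4, NFAT1 shRNA 2 and 3 both lay below all 3 controls. All 3 NFAT1 shRNA arrays lay below all controls for 10 genes, against 8.61% of all genes and 13.2% of the bright genes, a share of members not far from that background. NFAT1 shRNA 1 lay above all 3 controls for 30 genes, within them for 17 and below them for 11, where 37.1% of all genes and 29.0% of the bright genes lay above, 38.9% of all genes within and 24.0% below. NFAT1 shRNA 2 was the lower of the last pair for 40 of the 58 genes, beside 52.3% of all genes. Of the 8212 bright genes this held for 5120, a share not far from that of the members. For 0 of the 58 did all 3 NFAT1 shRNA arrays, or the last pair, lie above all controls, beside 14.2% and 28.3% of all genes.

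**Figure D1:**
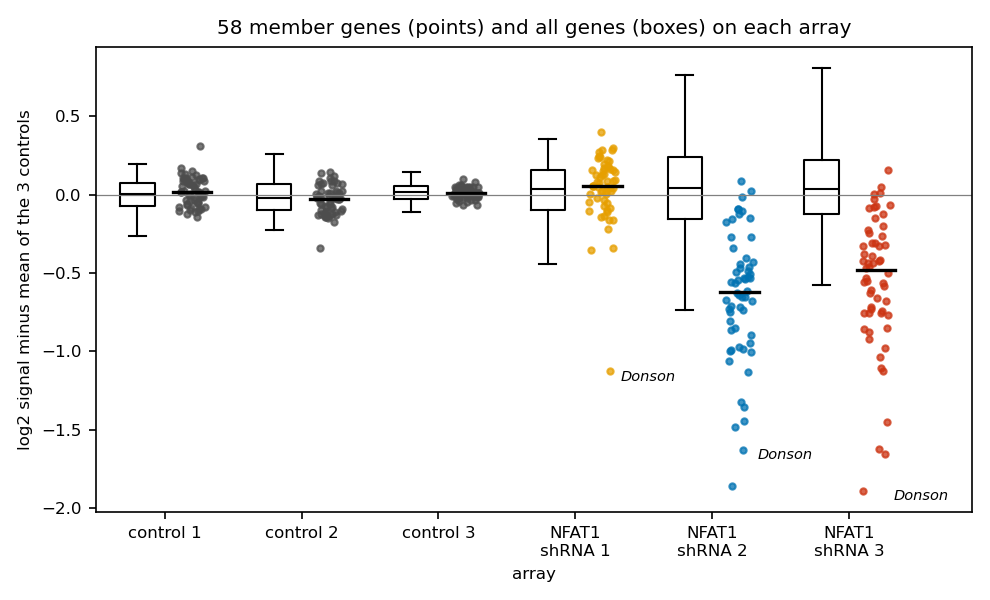
Log2 signal minus the mean of the 3 controls on each array (y axis) for the 58 replication and nucleotide genes (points, with a bar at their median) beside all 18193 genes (boxes from the 25th to the 75th percentile, whiskers from the 5th to the 95th). The member median is 0.05 on NFAT1 shRNA 1, -0.62 on NFAT1 shRNA 2 and -0.48 on NFAT1 shRNA 3, and Donson is far below the other members on NFAT1 shRNA 1.

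Without NFAT1 shRNA 1, which leaves 2 samples against 3, 43 of the 58 genes were lower with limma (adjusted p under 0.05 over all genes) and 0 were higher. In that comparison 7.84% of all genes and 15.0% of the bright genes were lower, and 10.6% of all genes were higher. The median difference of the 58 was then -0.59, beside 0.04 over all genes. Without NFAT1 shRNA 1 and control 3 together, 12 were lower and 0 higher, beside 0.984% and 1.25% of all genes. Of the 8212 bright genes 155 were lower and 134 higher in that setting. The 12 members were Donson, Cdc6, Tyms, Rrm2, Cdc7, Orc1, Rpa2, Fen1, Gins1, Rrm1, Pole2 and Timeless, and each was among the 43. The count was 0 without control 1, control 2, control 3, NFAT1 shRNA 2 or NFAT1 shRNA 3, each left out by itself, where 0, 0, 0, 0.00550% and 0.275% of all genes were lower. At an unadjusted p under 0.05, 4 of the 58 were lower in each of these 5 settings, beside 4.17%, 5.58%, 3.87%, 4.46% and 6.30% of all genes, so these counts are near the background. With array weights 35 were lower, all of them among the 43, beside 8.56% of all genes and 1311 of the 8212 bright genes. That fit gave control 3 a weight of 10.4 and NFAT1 shRNA 1 a weight of 0.253.

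**Figure D2:**
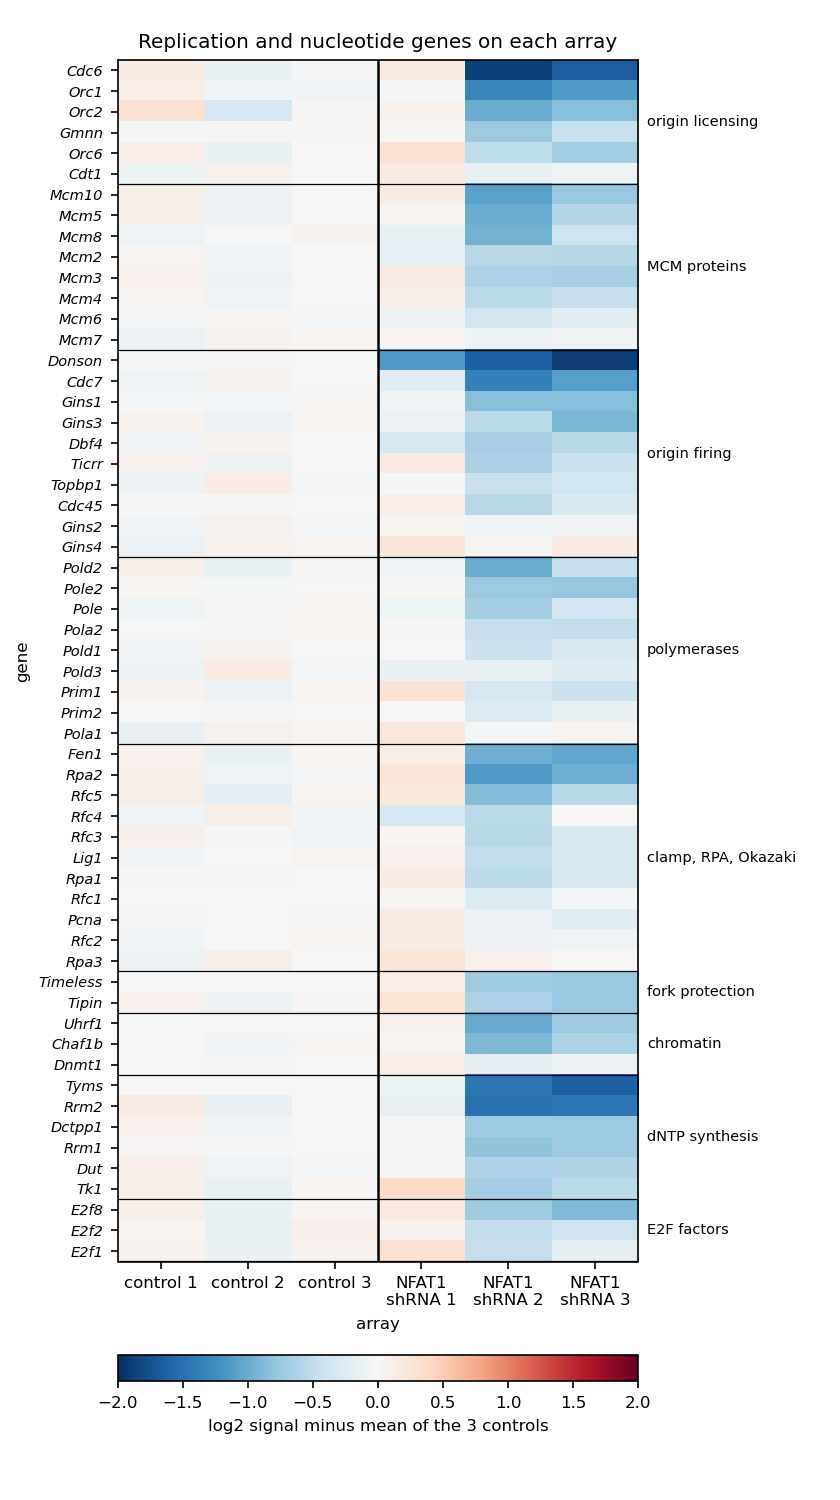
Heat map of the 58 measured genes (rows, grouped by role) on the 6 arrays (columns), coloured by log2 signal minus the mean of the 3 controls. NFAT1 shRNA 2 and 3 lie below all controls for 52 genes, while NFAT1 shRNA 1 lies above all controls for 30.

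Promoter sequence is shown for 5 of these genes because many members moved together on NFAT1 shRNA 2 and 3 while a few did not. RefSeq windows of GRCm38.p6, from 250 bases before to 50 after a gene's start, were matched for 50 of the 59 genes, in 61 windows. The E2F consensus was searched as TTTCCCGC, TTTCGCGC, TTTGCCGC and TTTGGCGC on both strands. These words stood in 19 of the 61 windows (31.1%) and in 2.26% of all 32851 windows; the median GC content was 61.3% and 52.7%. CCAAT, the NF-Y box, stood in 57.4% of member windows and 37.4% of all, TTTGAA, the CHR element, in 18.0% and 17.9%, and GGAAAA, an NFAT core, in 26.2% and 23.4%, each on both strands. Among measured genes with a window, the 19 with an E2F word had a median difference of -0.28 and the 30 without one of -0.44. Leaving out NFAT1 shRNA 1, 13 of the 19 and 25 of the 30 were lower with limma. The 250 bases before the start are printed for Cdc6 at chr11:98907901-98908150 (plus strand) and Orc1 at chr4:108579204-108579453 (plus strand), low on NFAT1 shRNA 2 and 3 and holding an E2F word. Donson at chr16:91688729-91688978 (minus strand) changed and holds none. Pola1 at chrX:93632156-93632405 (minus strand) and Mcm7 at chr5:138171884-138172133 (minus strand) hold an E2F word and differed by 0.08 and -0.04, neither past the test. On its other probe sets Mcm7 differed by -0.26, -0.18 and -0.09. Sequences run 5′ to 3′ on the gene's strand, and capitals mark the E2F words on either strand.
Cdc6: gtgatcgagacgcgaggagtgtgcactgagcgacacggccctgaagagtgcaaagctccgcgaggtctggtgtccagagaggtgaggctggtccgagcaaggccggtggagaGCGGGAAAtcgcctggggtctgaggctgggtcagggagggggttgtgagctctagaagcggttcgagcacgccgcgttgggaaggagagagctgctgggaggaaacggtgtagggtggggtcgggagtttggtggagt
Orc1: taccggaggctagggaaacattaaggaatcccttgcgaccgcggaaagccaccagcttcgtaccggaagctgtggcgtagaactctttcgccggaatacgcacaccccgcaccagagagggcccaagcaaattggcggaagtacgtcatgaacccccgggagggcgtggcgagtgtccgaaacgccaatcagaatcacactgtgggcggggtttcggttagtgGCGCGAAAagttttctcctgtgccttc
Donson: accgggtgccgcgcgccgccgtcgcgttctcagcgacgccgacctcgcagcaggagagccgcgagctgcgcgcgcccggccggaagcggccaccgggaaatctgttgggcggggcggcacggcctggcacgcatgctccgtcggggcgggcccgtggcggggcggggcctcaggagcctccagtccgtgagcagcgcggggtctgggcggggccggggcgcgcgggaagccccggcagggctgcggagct
Pola1: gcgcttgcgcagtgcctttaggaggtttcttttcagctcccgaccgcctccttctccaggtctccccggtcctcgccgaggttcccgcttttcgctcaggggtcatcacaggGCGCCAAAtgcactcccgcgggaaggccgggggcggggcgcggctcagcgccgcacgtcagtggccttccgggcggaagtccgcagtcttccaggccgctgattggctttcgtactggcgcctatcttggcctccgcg
Mcm7: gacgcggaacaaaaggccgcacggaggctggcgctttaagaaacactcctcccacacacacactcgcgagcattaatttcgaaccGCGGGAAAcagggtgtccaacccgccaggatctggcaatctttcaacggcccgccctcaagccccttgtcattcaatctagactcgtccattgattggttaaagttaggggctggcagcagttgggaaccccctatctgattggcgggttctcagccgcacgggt
A match describes these letters and is not evidence of binding.

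Donson, which acts in assembling and protecting the fork, had the largest difference of the 58 genes and was the 1 that changed. Controls 1, 2 and 3 read 9.57, 9.52 and 9.56, and NFAT1 shRNA 1, 2 and 3 read 8.42, 7.92 and 7.66. The gap between the groups was wider than the spread within either. The control mean was 9.55 ± 0.02 and the NFAT1 shRNA mean 8.002 ± 0.39 (SD, n = 3 in each group). Donson therefore differed by -1.55 ± 0.19 (SE, limma adjusted p = 0.0382). The exact 2-sided permutation p was 0.1, the smallest that 3 against 3 can give. NFAT1 shRNA 1 lay 1.13 below the control mean for Donson, where the next lowest of the 58 genes, Rfc4, lay 0.35 below. Donson did not pass without control 1 (adjusted p = 0.228), control 2 (0.182), control 3 (0.293), NFAT1 shRNA 2 (0.142) or NFAT1 shRNA 3 (0.0553), with differences between -1.56 and -1.38. Without NFAT1 shRNA 1 it passed (-1.76, adjusted p = 0.00243). Its other, dim probe set read 3.93 to 4.00 in controls and 3.75 to 3.88 in NFAT1 shRNA samples, a difference of -0.18, and with the mean of the pair Donson fell by 0.86 (adjusted p = 0.0419).

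Of the other origin firing genes, those of the Cdc7 kinase had the smallest p-values. Dbf4, the activating subunit of the Cdc7 kinase, read 11.13, 11.24 and 11.16 in controls and 10.83, 10.52 and 10.62 in NFAT1 shRNA 1 to 3. Its difference of -0.52 ± 0.10 (SE) had a limma adjusted p of 0.108, and the groups did not overlap. Cdc7, the kinase itself, read 9.69, 9.84 and 9.78 against 9.55, 8.41 and 8.67, also without overlap, a difference of -0.89 (adjusted p = 0.218). With NFAT1 shRNA 1 left out Dbf4 differed by -0.61 (limma adjusted p = 0.00921) and Cdc7 by -1.23 (0.00411). Both subunits were below the controls on NFAT1 shRNA 1 too, Dbf4 by 0.34 and Cdc7 by 0.22 from the control mean. Gins1, a subunit of the GINS complex that binds the helicase, read 9.36, 9.37 and 9.44 in controls and 9.31, 8.53 and 8.53 in NFAT1 shRNA cells. Gins3 read 8.40, 8.22 and 8.38 against 8.22, 7.80 and 7.41. Of the other GINS subunits Gins2 differed by -0.04 and Gins4 by 0.14. None of the 4 passed with limma (adjusted p from 0.253 to 0.824), and differences between the subunits were not tested. Of the 10 firing genes 9 had a lower mean and 1 changed, and 8 were lower without NFAT1 shRNA 1. Among the rest of them Ticrr and Topbp1, which load Cdc45, differed by -0.30 and -0.29, and Cdc45 by -0.25.

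**Figure D3:**
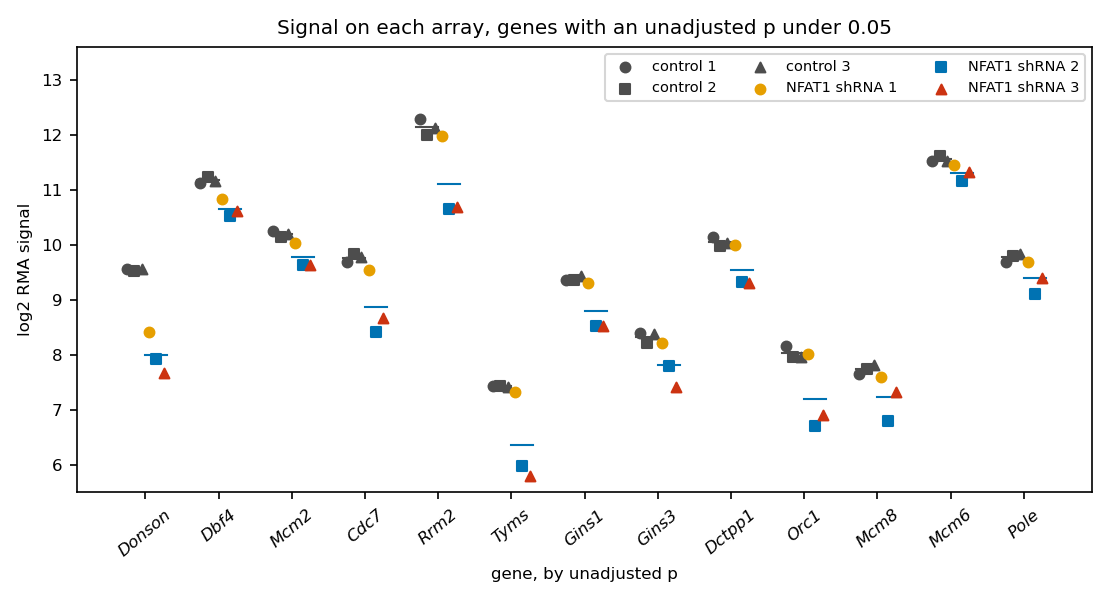
Log2 RMA signal (y axis) on each of the 6 arrays for the 13 genes with an unadjusted p under 0.05, ordered by that p, with short lines at the group means. NFAT1 shRNA 1 (orange) lies nearer to the controls than NFAT1 shRNA 2 and 3 do, and farthest from them for Donson, where it reads 8.42 beside controls of 9.52 to 9.57.

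Licensing genes were low on NFAT1 shRNA 2 and 3 and near the controls on NFAT1 shRNA 1. Cdc6, which recruits the MCM loader, read 9.71, 9.42 and 9.50 in controls and 9.73, 7.68 and 7.89 in NFAT1 shRNA cells. NFAT1 shRNA 1 was the highest of all 6 arrays, so the groups overlapped and the difference of -1.11 ± 0.52 (SE) had a limma adjusted p of 0.324. With that array left out it was -1.76 (adjusted p = 0.00308), a level 29.6% of control. Orc1, the largest subunit of the origin recognition complex, read 8.16, 7.97 and 7.96 against 8.01, 6.70 and 6.90, and differed by -1.23 with NFAT1 shRNA 1 left out (limma adjusted p = 0.00413). Orc2, another subunit, read 9.10, 8.45 and 8.82 against 8.86, 7.79 and 7.94. Orc2 had the widest control range of the 58 genes, 0.65, and its difference of -0.59 was smaller than that range. Orc6 differed by -0.30 and Gmnn, which blocks Cdt1, by -0.38. Cdt1 itself differed by -0.02, with all 6 arrays between 12.07 and 12.39, and turned to 0.03 when quantile-normalized again. On another bright probe set Cdt1 differed by -0.10, and by -0.21 with NFAT1 shRNA 1 left out. Of the 6 licensing genes 0 passed with limma on all 6 arrays, 1 was lower at an unadjusted p under 0.05, and 5 were lower without NFAT1 shRNA 1, Cdt1 being the exception.

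The 6 subunits of the MCM2-7 helicase, which act as 1 ring, had differences from -0.50 to -0.04 on their brightest probe sets. Mcm2 read 10.25, 10.15 and 10.20 in controls and 10.04, 9.64 and 9.64 in NFAT1 shRNA cells, without overlap, a difference of -0.43 ± 0.13 (SE, limma adjusted p = 0.205). Mcm6 did not overlap either, at 11.52, 11.62 and 11.54 against 11.45, 11.15 and 11.33. On another bright probe set Mcm6 differed by -0.58 (limma adjusted p = 0.186 over all probe sets), and on a dim one by -0.29. Mcm5 differed by -0.50, Mcm3 by -0.37 and Mcm4 by -0.30, while Mcm7 differed by -0.04, with NFAT1 shRNA 1 to 3 at 12.21, 12.07 and 12.10 beside controls of 12.05 to 12.24. On other bright probe sets Mcm4 differed by -0.57, Mcm2 by -0.60, Mcm5 by -0.61 and -0.80, and Mcm3 by -0.36, -0.32 and -0.40. The other Mcm7 probe sets, all bright, differed by -0.26, -0.18 and -0.09. With NFAT1 shRNA 1 left out these differences were -0.38, -0.26 and -0.20. Without NFAT1 shRNA 1, Mcm2, Mcm3, Mcm4 and Mcm5 were lower with limma, and Mcm6 (-0.32, adjusted p = 0.0691) and Mcm7 (-0.08, adjusted p = 0.624) did not pass. Whether the subunits differ from each other was not tested. Mcm10, which helps to start the fork, read 9.60, 9.38 and 9.48 against 9.64, 8.42 and 8.73. Mcm8, a related helicase that acts in recombination, read 7.65, 7.75 and 7.82 against 7.60, 6.79 and 7.32, without overlap. With limma on all 6 arrays 0 of the 8 MCM genes passed and 3 were lower at an unadjusted p under 0.05.

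Deoxynucleotide synthesis held the largest differences after Donson and Cdc6. Rrm2, the small subunit of ribonucleotide reductase, read 12.29, 11.996 and 12.13 in controls and 11.98, 10.65 and 10.69 in NFAT1 shRNA cells. The groups lay just apart, with NFAT1 shRNA 1 close below the lowest control. The difference was -1.03 ± 0.35 (SE, limma adjusted p = 0.239), and -1.47 without NFAT1 shRNA 1 (adjusted p = 0.00333). Its 3 probe sets differed by -1.03, -1.16 and -1.18. Tyms, which makes thymidylate, read 7.43, 7.43 and 7.42 against 7.33, 5.98 and 5.80, a difference of -1.06 ± 0.38 (SE, limma adjusted p = 0.253). The controls were within 0.02 of each other, and NFAT1 shRNA 1 lay 0.10 below their mean. Without that array Tyms stood at 34.5% of control (-1.54, adjusted p = 0.00244). Its 4 probe sets were all lower, the 3 dimmer ones by -0.51, -0.17 and -0.11. Dctpp1, which removes modified deoxycytidine triphosphates, read 10.14, 9.98 and 10.04 against 10.00, 9.32 and 9.31. Rrm1, the large reductase subunit, differed by -0.50, Dut, which keeps uracil out of DNA, by -0.40, and the thymidine kinase gene Tk1 by -0.27. Tk1 read highest of the 6 arrays on NFAT1 shRNA 1, at 11.08. Of these 6 genes 0 passed with limma on all 6 arrays, 3 were lower at an unadjusted p under 0.05, and all 6 were lower without NFAT1 shRNA 1.

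Among polymerase genes the differences were smaller. Pole, the catalytic subunit of polymerase epsilon, read 9.70, 9.80 and 9.84 in controls and 9.70, 9.11 and 9.40 in NFAT1 shRNA cells, with NFAT1 shRNA 1 inside the control range. Its partner Pole2 differed by -0.50, as did Pold2 of polymerase delta, while Pold1 and Pold3 differed by -0.24 and -0.18. For polymerase alpha and its primase the values were 0.08 for Pola1, -0.31 for Pola2, -0.16 for Prim1 and -0.14 for Prim2. On their other bright probe sets Prim1 differed by -0.40, Prim2 by -0.20, Pold3 by -0.19 and Pold1 by -0.05. Pola1 turned to -0.0025 with array weights. With limma 0 of 9 passed on all 6 arrays, 1 was lower at an unadjusted p under 0.05, and 6 were lower without NFAT1 shRNA 1.

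The clamp, its loader, RPA and the Okazaki fragment enzymes covered a wide range. Fen1, which trims Okazaki fragments, read 11.27, 11.06 and 11.22 in controls and 11.30, 10.21 and 10.15 in NFAT1 shRNA cells. Rpa2 read 9.60, 9.42 and 9.48 against 9.75, 8.37 and 8.52. For both genes NFAT1 shRNA 1 exceeded every control while NFAT1 shRNA 2 and 3 lay well below them all. Fen1 differed by -1.004 and Rpa2 by -1.06 with NFAT1 shRNA 1 left out (limma adjusted p = 0.00459 and 0.00447). With all 6 arrays Rpa1 differed by -0.23, Rpa2 by -0.62 and Rpa3 by 0.11, none past the test, and differences between these subunits were not tested. Pcna, the clamp and the brightest of the 58 genes, differed by -0.07, with all arrays between 12.62 and 13.03. The 5 clamp loader genes ran from -0.40 (Rfc5) to -0.01 (Rfc2), and Rfc2 turned to 0.02 when quantile-normalized again. Rfc4 was the one whose NFAT1 shRNA 3 value (9.26) lay inside the control range of 9.19 to 9.38 while NFAT1 shRNA 1 and 2 (8.90 and 8.72) lay below it. That held on its brightest probe set only. On its other one Rfc4 read 8.68, 8.74 and 8.61 against 8.37, 7.91 and 8.40, without overlap (difference -0.45). Lig1, the ligase that seals the fragments, differed by -0.24. With limma 0 of 11 passed on all 6 arrays and 0 were lower at an unadjusted p under 0.05, and 6 were lower without NFAT1 shRNA 1.

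Fork protection, chromatin and E2F genes completed the list. Timeless and Tipin, which form 1 complex at the fork, differed by -0.45 and -0.38. Uhrf1, which reads hemimethylated DNA, read 10.76, 10.78 and 10.79 in controls and 10.86, 9.77 and 10.05 in NFAT1 shRNA cells. Dnmt1, the maintenance methyltransferase that Uhrf1 recruits, differed by -0.06, and the chromatin assembly gene Chaf1b by -0.49. Of the E2F genes, E2f8 differed by -0.46, E2f2 by -0.28 and E2f1 by -0.12, and E2f1 read 0.01 with the mean of its 3 probe sets. In these groups 0 of 8 passed with limma on all 6 arrays and 0 were lower at an unadjusted p under 0.05. Without NFAT1 shRNA 1 both fork protection genes, 2 of 3 chromatin genes and 2 of 3 E2F genes were lower, and Dnmt1 (adjusted p = 0.277) and E2f1 (0.108) did not pass.

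**Figure D4:**
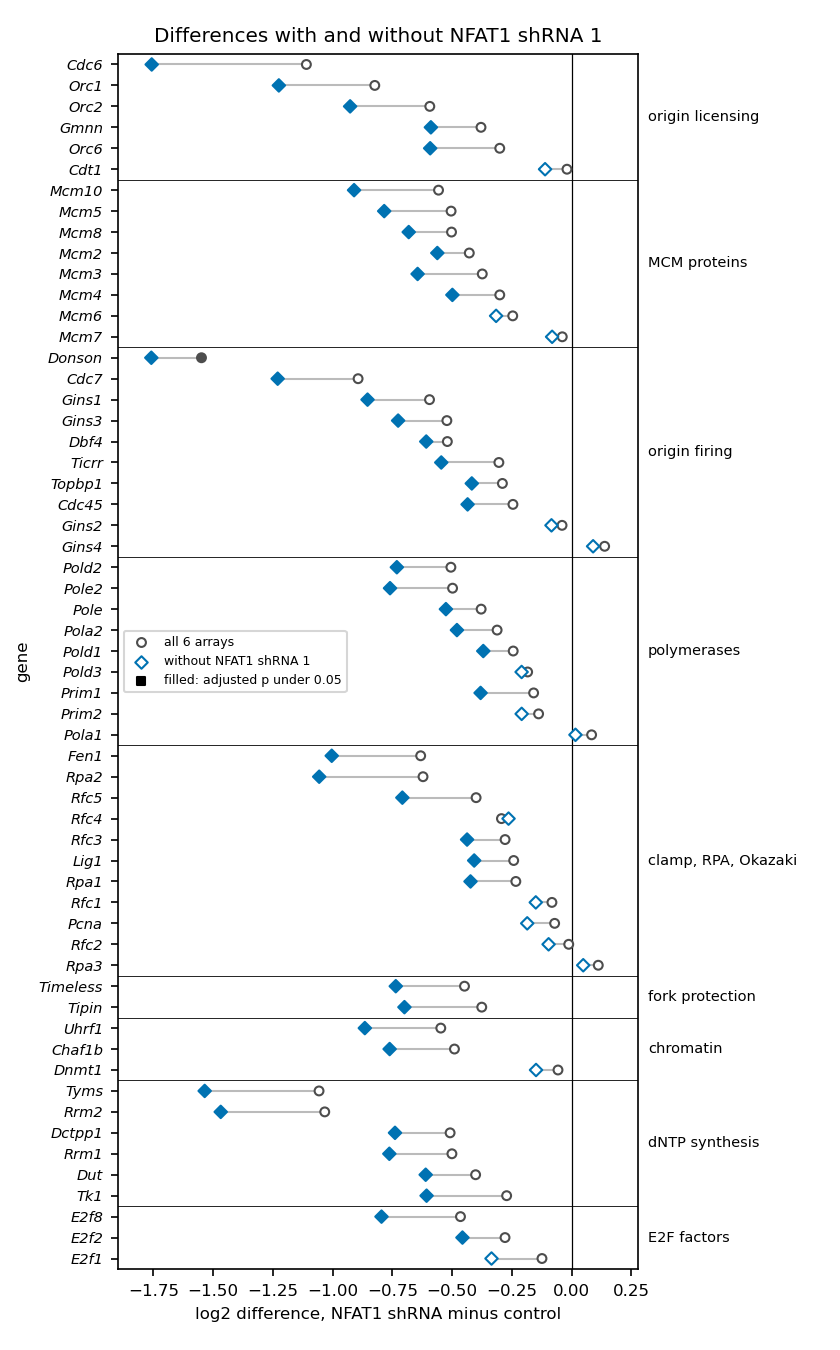
Log2 difference, NFAT1 shRNA minus control (x axis), for each of the 58 genes (rows, grouped by role) with all 6 arrays (circles) and without NFAT1 shRNA 1 (diamonds); filled symbols have a limma adjusted p under 0.05 over all genes. The filled circle is Donson, and 43 diamonds are filled, all of them left of 0.

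Other probe sets of the same genes, read on all 6 arrays, mostly gave like directions. The 58 genes had 124 probe sets, with the brightest ones used above counted in. Of these 124, 116 were lower in NFAT1 shRNA cells, including 90 of the 93 that averaged 7 or more. By their brightest probe set, 40.7% of all genes and 50.3% of the bright genes were lower. In the 44 genes that several probe sets read, all of these were lower for 39, all higher for 1 (Pola1) and of mixed sign for 4 (Chaf1b, E2f1, E2f8 and Prim2). In these 4 genes the probe sets that were higher had mean signals of 4.34 to 5.69. Tested by probe set with limma over all 45037, 1 of the 124 passed, that of Donson, beside 90 of all probe sets.

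A wider list of 67 genes from textbook knowledge, of which 65 were measured, held other fork proteins, histone chaperones, nucleotide supply enzymes, E2F and pocket proteins and the replication checkpoint. With limma 0 passed on all 6 arrays. At an unadjusted p under 0.05, 18 were lower and 4 higher, beside 7.01% and 10.1% of all genes. Of the 65 genes 61 were bright, and of all 8212 bright genes 12.1% were lower at that p and 971 higher. By their mean 52 were lower (median difference -0.23), beside 40.7% of all genes and 50.3% of the bright genes. Wdhd1, a fork protein that tethers polymerase alpha, read 9.58, 9.45 and 9.62 in controls and 9.10, 7.90 and 7.84 in NFAT1 shRNA cells (difference -1.27, adjusted p = 0.170). The repressor E2f7 differed by -1.05, the histone chaperone Asf1a by -0.43 and Cad, which starts pyrimidine synthesis, by -0.50. On the other side Dguok, the deoxyguanosine kinase of mitochondria, read 7.67, 7.86 and 7.65 against 8.15, 8.67 and 8.68, without overlap (difference 0.77, adjusted p = 0.123). Tfdp2, an E2F partner, differed by 0.93. These are the 6 genes of the wider list with the smallest p. With NFAT1 shRNA 1 left out, 33 of the 65 were lower and 6 were higher with limma, beside 7.84% and 10.6% of all genes. Of the 8212 bright genes 15.0% were then lower and 1350 higher, so the count of higher genes is not above the background. Wdhd1 then differed by -1.68 (adjusted p = 0.00205) and E2f7 by -1.43 (0.00411).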

How the data were processed

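RNA of 6 samples of 4T1 cells, 3 with control shRNA and 3 with NFAT1 shRNA, was measured on Affymetrix arrays, and groups come from the sample titles. The deposited values are log2 signals. The submitters' processing notes name RMA as the authors' method, with a version not given in the sources used here. Its quantile step hides a shift shared by most transcripts, and dim probe sets are compressed. Of 45037 probe sets 34945 had 1 gene symbol in the platform annotation, 932 several, and 9160 are unnamed here; 34741 matched the GRCm38.p6 gene table, used for names. The comparison used limma 3.58.1 (lmFit, eBayes; R 4.3.3) on all 18193 genes, without covariates or a filter, with Benjamini-Hochberg adjustment and 2-sided p-values; the test was run on simulated data first. The number of arrays limits the precision. The member genes, the lists and the alternatives were chosen with earlier results of these data known. Values on every array are given for Donson, Rrm2, Tyms, members with an unadjusted p under 0.05 and the 12 largest differences; of the wider list the 6 smallest p-values are named. Bright means a mean log2 signal of at least 7. Promoters were read from RefSeq windows with Python 3.11.15. Alternatives were leaving out arrays, a filter on dim genes, other scaling, another variance prior, array weights, a replicate block and other probe set choices.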

Additional observations from a re-analysis of the deposited data

How the results depend on the processing

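Replicate numbers are shared by the groups, and the deviations of same-numbered samples had correlations of 0.69, 0.53 and -0.04. Those of control 2 and NFAT1 shRNA 3, which differ in number, had 0.46. Whether the numbers pair the samples is thus not settled, and the main comparison did not pair them. With the replicate block 1 of the 58 genes passed, Donson, and 5 of the wider list, 3 of them lower. Of all 18193 genes 375 were lower in that fit. The count of changed member genes ran from 0 to 43 and that of the wider list from 0 to 39 when 1 array was left out. Without control 3 and NFAT1 shRNA 1 together they were 12 and 9, and with array weights 35 and 33. The 9 were 8 lower and 1 higher, beside 0.984% and 1.25% of all genes. The 33 were 29 lower and 4 higher, beside 1558 and 1822 of all 18193 genes, so the higher count is not above the background. The dim-gene filter, both other scalings, the trended and robust prior and both probe set choices left 1 member gene changed, Donson. The median difference ran from -0.59 to -0.22 over the settings. Signs turned for genes near 0, none of them called: when 1 array was left out Cdt1 ran from -0.111 to 0.0449, Rfc2 from -0.0959 to 0.0359, Rfc1 from -0.150 to 0.0120, Dnmt1 from -0.149 to 0.0015, Gins2 from -0.0838 to 0.0025, Pcna from -0.185 to 0.0170 and E2f1 from -0.335 to 0.0485. When quantile-normalized again Mcm7 read 0.0101, Cdt1 0.0345 and Rfc2 0.0168; Pola1 read -0.0025 with array weights and E2f1 0.0097 with the mean of its probe sets. The cause was not tested. Without probe sets ending in _x_at, _s_at or _a_at, 52 member genes were left.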
